A study of Mus musculus with 6 samples.

Results

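Imprinted genes were followed in mouse embryonic stem cells (cultured pluripotent cells) that carry a floxed element named -5. The genes were taken by name from a fixed list of 37, of which 36 had a row in the count table of 23999 gene symbols, and Ascl2os was not analysed here. All 6 samples share the label of the -5 floxed genotype with an exogenous mNanogV5, and the series title ties the work to an enhancer of Nanog. Treatment lasted 6 days and was either the ethanol vehicle (n = 3) or 4OHT, a form of tamoxifen (n = 3). The labels do not say which recombinase 4OHT acts on, how many clones were used, or whether the replicates were separate cultures, so the p-values measure the spread between these samples, which may be technical.

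An imprinted gene is expressed mainly or only from the copy inherited from one parent. The choice is set by DNA methylation laid down in the egg or the sperm at control regions, and these regions often govern a whole cluster of genes, with a long noncoding RNA expressed from one parental copy and protein-coding genes from the other. Many imprinted genes act on growth of the fetus and the placenta, and embryonic stem cell lines are known to differ in how well they keep their imprints. After fertilisation the methylated copy is protected by ZFP57, a zinc finger protein that binds a methylated hexamer and recruits TRIM28. The parental copy named for each gene below is background knowledge: the counts do not separate the 2 copies, and none of the values shows which copy was read.

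The hexamer known for ZFP57, TGCCGC, was searched on both strands (its other strand reads GCGGCA) in the promoter windows of RefSeq on GRCm38.p6, which run from 250 bases before to 50 bases after a start. Of the 37 members 29 matched a window by symbol. The hexamer stood in a window of 10 of the 29 (34.5%) against 13.1% of all 27025 symbols, and in 11 of 47 windows (23.4%) against 11.6% of all 32851. The hexamer itself holds a CG, and the median window of the members had 10 CG dinucleotides against 7 over all windows. The part of this CG content in the difference was not tested. Of the 8 matched members that passed the test described below, 3 held it (Plagl1, Igf2 and Grb10). A match is a string of letters and was not tested as a binding site. The stretches below show a hexamer, in capitals, with 12 bases on each side in 2 of the members that passed and in 3 that did not (Meg3, Snrpn and Mest).
Igf2 (chr7:142661224-142661253, minus strand): tacggtgtcccaGCGGCAgcacagattttg
Grb10 (chr11:12037379-12037408, minus strand): gggtgcggggagGCGGCAggaagggaaggg
Meg3 (chr12:109540794-109540823, plus strand): gccaggggcactGCGGCAgatttttttttc
Snrpn (chr7:60005184-60005213, minus strand): gacccctgcattGCGGCAaaaatgtgcgca
Mest (chr6:30737971-30738000, plus strand): aggaggggcgctGCGGCAggatgggcgggt

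Plagl1 is shown over the 250 bases before its start because it was among the members with the largest rise. The stretch holds 19 CG dinucleotides and 1 hexamer, in capitals. The Peg3 and Usp29 genes lie head to head, and the 96 bases between them are shown on the strand of Usp29. They are shown because Usp29 passed the test described below and Peg3 did not. A difference between these neighbours was not tested. That stretch holds 3 CG dinucleotides and no hexamer.
Plagl1 (chr10:13090582-13090831, plus strand): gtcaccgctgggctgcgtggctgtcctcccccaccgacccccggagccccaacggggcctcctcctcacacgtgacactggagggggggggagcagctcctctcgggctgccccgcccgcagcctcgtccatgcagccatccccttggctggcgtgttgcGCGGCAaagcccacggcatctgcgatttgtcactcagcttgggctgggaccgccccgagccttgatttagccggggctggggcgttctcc
Peg3-Usp29 (chr7:6730463-6730558, plus strand): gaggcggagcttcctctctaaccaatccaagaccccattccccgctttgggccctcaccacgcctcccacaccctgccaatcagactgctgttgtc

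The libraries held 20030423 to 55194644 counts, except 4OHT replicate 2 with 515388, where 1 read was worth 1.91 CPM (read counts scaled to library size with TMM factors) against 0.0183 to 0.0498 CPM in the other 5. In that library 3 reads make 5.73 CPM and 7 of the 36 members had no read, so its values say little about members under about 10 CPM. Nanog, whose enhancer the study concerns, stood at 631, 660 and 641 CPM in vehicle and at 177, 172 and 194 CPM in 4OHT replicates 1 to 3, and the exogenous mNanogV5 may add reads to this row. Of 10 embryonic stem cell markers 1 was higher, 2 lower and 7 did not pass, with a summed level of 7540 to 7720 CPM in vehicle and 6997 to 7371 CPM in 4OHT. Of 12 markers of primitive and visceral endoderm 9 were tested and 8 rose. Their summed level went from between 9.09 and 10.4 CPM to between 47.7 and 66.4 CPM, while Ttr had no read in any library and Afp at most 0.0365 CPM. Of 10 feeder fibroblast markers, 5 were tested and 1, Thy1, fell, with sums of 26.8 to 28.5 CPM against 16.8 to 24.8 CPM, and Postn had no read. Of 10 trophoblast markers 7 were tested, 3 rose and 2 fell, with sums of 109 to 111 CPM against 111 to 115 CPM. In such bulk samples, a change in the number of cells of a type cannot be told apart from a change in RNA per cell.

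Of the 36 members 34 passed the filter on low counts, and 7 of these rose and 3 fell after 4OHT while 24 did not pass the test (edgeR's quasi-likelihood test, adjusted p under 0.05 over all tested genes). That is 29.4% of the tested members, beside 22.4% of all 14458 tested genes (11.9% higher and 10.5% lower). The members' median log2 fold change of 4OHT over vehicle was -0.01, with 17 values above 0 and 17 below, and the median over all tested genes was -0.00. Their changes ran from -0.64 for Phlda2 to 1.03 for Peg10. Of the 34, 26 lay within 0.5 on the log2 scale, a smaller share than the 87.3% of all tested genes. The median size of the log2 fold change, sign left out, was 0.212 for the members and 0.142 for all tested genes. This difference in size was not tested. In 13 members the groups did not overlap, 8 with 4OHT above vehicle and 5 below (13 of 34, beside 31.3% of all tested genes). For Magel2, Usp29, H19, Cdkn1c and Slc22a18 the value of 4OHT replicate 2 rests on only 0 to 4 reads. The count of rises was 4 without vehicle replicate 2 and 3 in DESeq2, and the count of falls was 6 without 4OHT replicate 1 and 5 without 4OHT replicate 3. Peg10, Plagl1, Igf2r, Phlda2 and Grb10 passed in the main test and in all 14 alternatives.

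**Figure D1:**
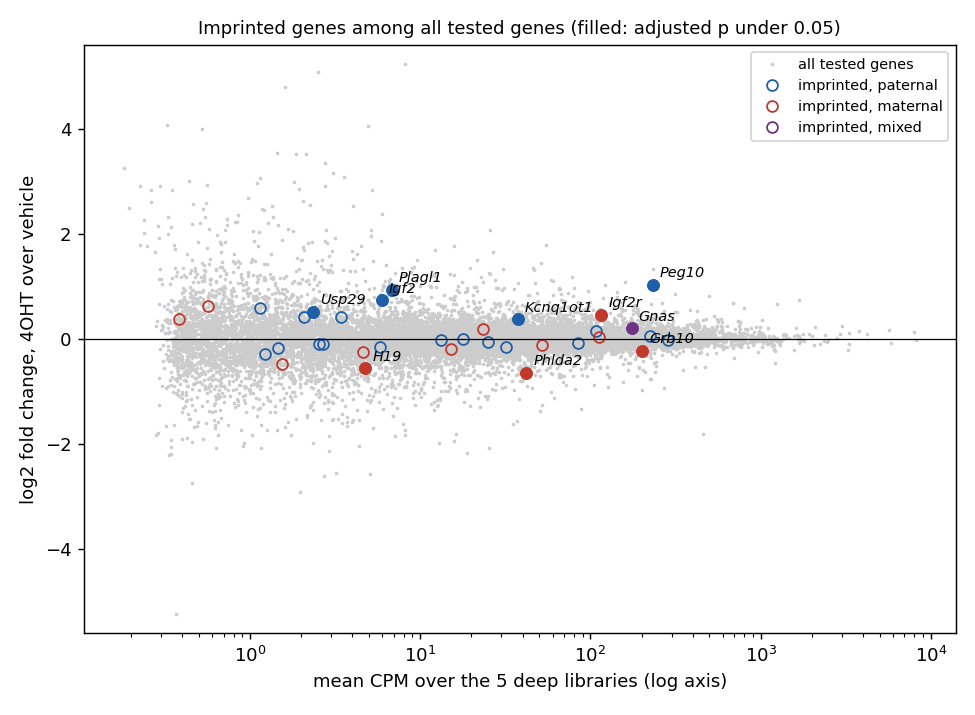
Log2 fold change of 4OHT over vehicle (vertical axis) against the mean level in CPM over the 5 deep libraries (horizontal log axis) for 14458 tested genes (grey) and the 34 tested imprinted genes (blue paternally, red maternally expressed, purple mixed; filled where the adjusted p was under 0.05). The members spread over the range of levels, and Peg10 at 1.03 is the only 1 to change at least 2-fold.

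Grouped by the parental copy known to be expressed, 5 of 21 tested paternally expressed members rose and none fell in the main test, with a median log2 fold change of 0.00. That is 23.8% called in either direction, beside 22.4% of all tested genes (11.9% higher and 10.5% lower). At an unadjusted p under 0.05, edgeR gave 9 of the 21 as higher and 0 as lower, beside 2500 higher and 2368 lower of all 14458 tested genes. In DESeq2 and in limma-voom with quantile normalization no paternally expressed member fell either. Of the rises, Usp29 and Kcnq1ot1 passed in neither, Igf2 did not pass in DESeq2, and Magel2 was gained in limma-voom. Ddc fell in the fit blocked on replicate number and without 4OHT replicate 3, and Peg3 fell without 4OHT replicate 1. Of the 12 maternally expressed members 1 rose (Igf2r) and 3 fell (Phlda2, H19 and Grb10), which is 33.3%, with a median of -0.15. These classes come from tissues where a gene is imprinted and need not hold in these cells. Igf2r was classed from tissues where Airn is expressed, and Ddc from the heart. The difference between the 2 classes was not tested, since members of a cluster share their control region and are not independent. Gnas, whose transcripts come from different parental copies, was counted in neither class. By kind of RNA, 6 of 28 tested coding members rose and 2 fell, and of 6 tested noncoding members 1 rose (Kcnq1ot1) and 1 fell (H19).

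**Figure D2:**
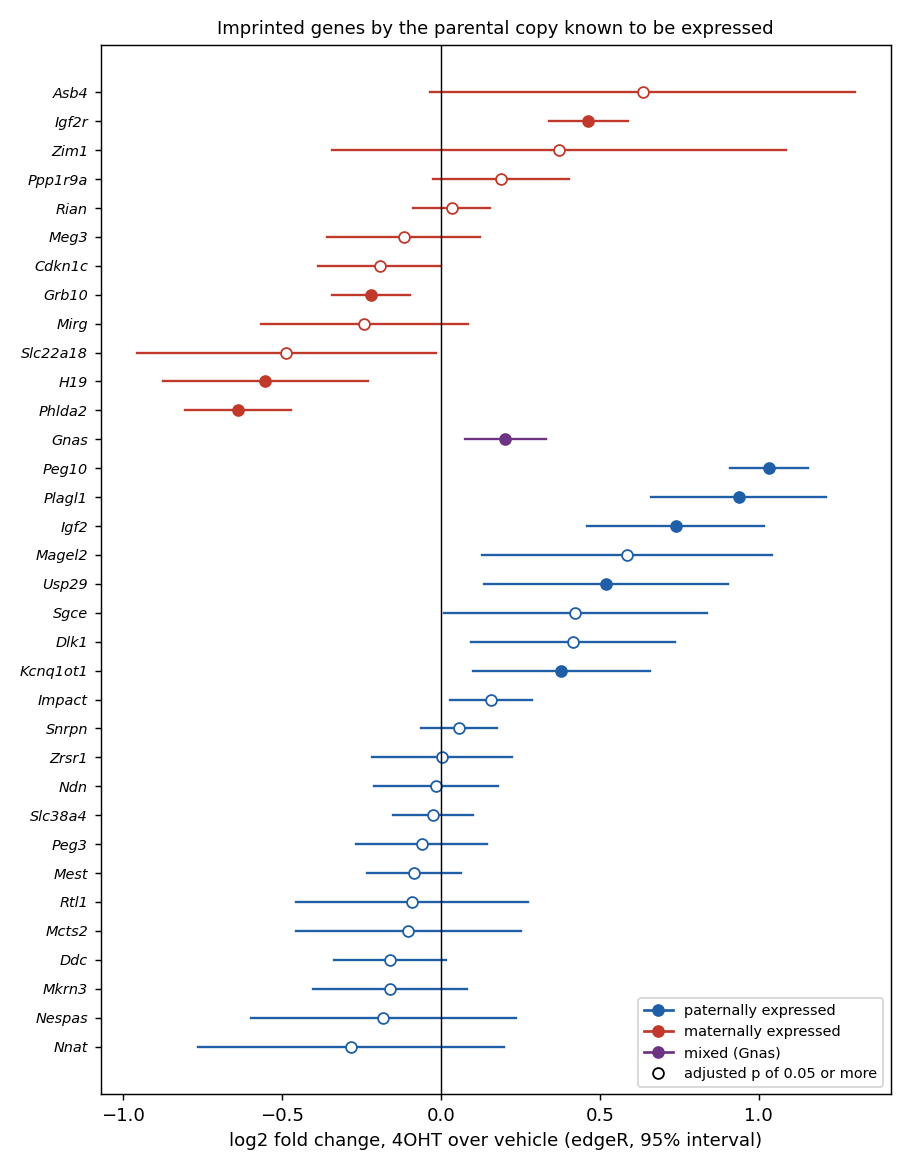
Log2 fold change of 4OHT over vehicle with its 95% interval from edgeR for the 34 tested members, sorted within the classes of maternally expressed (red), mixed (purple) and paternally expressed genes (blue). Filled points passed the test: 5 blue and 1 red and the purple point lie to the right of 0, and 3 red points to the left.

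Levels between genes were compared per kilobase of exon (RPKM, from GENCODE vM21 exon lengths, which need not be those the authors counted on). In vehicle Snrpn was the highest member at 102 RPKM, followed by Slc38a4 at 67.4, Phlda2 at 43.7, Peg10 at 24.4, Grb10 at 23.5, Mest at 22.2 and Impact at 20.3 RPKM. After 4OHT Peg10 stood at 49.5 RPKM and Phlda2 at 29.5 RPKM. At the other end were Usp29 at 0.11, Zim1 at 0.0409 and Nap1l5 at 0.0124 RPKM in vehicle, and Airn had no read there. Kcnq1ot1, with 93092 exon bases, had 33.1 CPM but only 0.355 RPKM in vehicle.

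The neighbours Igf2 and H19 moved in opposite directions. Igf2, the paternally expressed fetal growth factor, was at 3.97, 4.98 and 5.29 CPM in vehicle replicates 1 to 3 and at 7.24, 11.5 and 8.19 CPM in 4OHT replicates 1 to 3. All 4OHT libraries lay above all vehicle libraries, and the value of 4OHT replicate 2 rests on 6 reads. Igf2 rose 1.67-fold (log2 fold change 0.74, SE 0.13, 95% interval 0.46 to 1.02, adjusted p = 0.000368 in edgeR). In DESeq2 with all libraries its adjusted p was 0.0811, over a range of 7.17e-08 to 0.0811 in the 14 alternatives. H19, the maternally expressed long noncoding RNA downstream, was at 6.18, 4.33 and 5.83 CPM in vehicle and at 4.24, 1.91 and 3.26 CPM in 4OHT. Vehicle replicate 2 and 4OHT replicate 1 nearly met, without overlap, and 4OHT replicate 2 had 1 read. H19 fell by 0.55 on the log2 scale (SE 0.15, 95% interval -0.88 to -0.23, adjusted p = 0.0131 in edgeR). The adjusted p was 0.0917 without vehicle replicate 1, 0.106 in limma-voom and 0.465 in DESeq2, in a range of 4.98e-05 to 0.465. Both genes were low, and both are known from textbooks to be active in endoderm. The endoderm markers given above rose with Igf2 and against H19, and their part in the result was not tested.

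Igf2r, the receptor that takes up and clears IGF2 and is maternally expressed in differentiated tissues, rose as well. It was at 102, 96.1 and 101 CPM in vehicle and at 142, 132 and 135 CPM in 4OHT, with every 4OHT library above every vehicle library. The rise was 1.38-fold (log2 fold change 0.46, SE 0.06, adjusted p = 7.03e-06 in edgeR). Airn, the paternally expressed antisense RNA known to silence the paternal Igf2r copy in differentiated tissues, had 4 reads in 4OHT replicate 1 and none in the other 5 libraries, so it was not tested. With no read, 3 counts give upper limits of 0.0567 to 0.149 CPM in the vehicle libraries, which cover counting error only.

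In the Peg10-Sgce cluster Peg10 doubled. Peg10, a paternally expressed gene derived from a retrotransposon and needed for the placenta, was at 170, 156 and 162 CPM in vehicle and at 338, 319 and 333 CPM in 4OHT. The groups were far apart and the shallow library, with 167 reads, stood beside the deep 4OHT libraries. The fold was 2.05 (log2 fold change 1.03, SE 0.06, 95% interval 0.91 to 1.15, adjusted p = 1.08e-10 in edgeR). Peg10 was the 1 of 34 tested members that passed with a change of at least 2-fold, beside 3.39% of all tested genes. Sgce, which encodes epsilon-sarcoglycan and starts next to Peg10 in the opposite direction, stood at 2.32, 1.59 and 1.48 CPM and at 2.69, 5.73 and 2.29 CPM. Its groups overlapped, and the log2 fold change of 0.42 did not pass (95% interval 0.01 to 0.84, adjusted p = 0.139 in edgeR), though it was 0.72 with an adjusted p of 0.0329 without vehicle replicate 1. Peg10 stood far above Sgce per length, at 24.4 against 0.17 RPKM in vehicle. Ppp1r9a, a maternally expressed gene for the actin-binding protein neurabin, was at 23.0, 21.7 and 21.8 CPM and at 29.3, 24.8 and 20.9 CPM (a change of 0.19 on the log2 scale, adjusted p = 0.207 in edgeR). Leaving out 4OHT replicate 3 gave 0.38 with an adjusted p of 0.000101, and leaving out 4OHT replicate 1 gave -0.0783 with 0.606. Asb4, also maternally expressed, was under 1 CPM in all 6 libraries and did not pass (log2 fold change 0.63, 95% interval -0.03 to 1.3). Of the cluster's other genes, Casd1, an acetyltransferase of sialic acids, rose from 15.2 ± 0.662 to 17.9 ± 3.94 CPM (SD, n = 3, a change of 0.4 on the log2 scale, adjusted p = 0.00184 in edgeR). Its groups overlapped through 4OHT replicate 2 at 13.4 CPM, and in DESeq2 the adjusted p of Casd1 was 0.289. With these neighbours 7 of the 8 tested genes of the cluster had values above 0, of which 2 passed, beside 7134 of all 14458 tested genes above 0 and 22.4% that passed. Ppp1r9a, one of the 7, was below 0 without 4OHT replicate 1.

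The Kcnq1ot1 cluster holds maternally expressed genes that restrain growth and the paternally expressed antisense RNA Kcnq1ot1, which silences them on the same chromosome. Phlda2, which limits placental growth, was at 50.1, 49.99 and 47.0 CPM in vehicle and at 28.4, 36.3 and 34.7 CPM in 4OHT. All 4OHT libraries were below all vehicle libraries, and Phlda2 fell by 0.64 on the log2 scale (SE 0.08, 95% interval -0.81 to -0.47, adjusted p = 4.95e-06 in edgeR). Cdkn1c, the cyclin-dependent kinase inhibitor p57, was at 15.0, 16.3 and 16.7 CPM and at 13.8, 7.64 and 14.3 CPM, where 7.64 CPM rests on 4 reads. The groups did not overlap, but the log2 fold change of -0.19 did not pass (95% interval -0.39 to 0.00, adjusted p = 0.151 in edgeR). Slc22a18, a transporter gene, was at 1.61, 2.04 and 1.52 CPM and at 1.02, 0 and 1.5 CPM (a change of -0.49 on the log2 scale, adjusted p = 0.136 in edgeR, and 0.027 without 4OHT replicate 3). Without 4OHT replicate 1 the change of Slc22a18 was -0.19 (adjusted p = 0.679 in edgeR), and it passed in 1 of 13 alternatives. Kcnq1ot1 itself was at 42.7, 28.1 and 28.4 CPM in vehicle and at 49.96, 40.1 and 37.3 CPM in 4OHT. Replicate 1 was the highest of each group, so the groups overlapped, and each 4OHT library was above the vehicle library of the same number. Its log2 fold change was 0.38 (SE 0.13, adjusted p = 0.0472 in edgeR), and 0.31 with an adjusted p of 8.6e-05 in the fit blocked on replicate number. Without the block the adjusted p of Kcnq1ot1 was 0.147 and 0.165 when vehicle replicate 2 or 3 was left out and 0.229 and 0.126 when 4OHT replicate 1 or 2 was, and its log2 fold change without 4OHT replicate 1 was 0.14. With all libraries its adjusted p was 0.258 in DESeq2 and 0.252 in limma-voom, and Kcnq1ot1 passed in 5 of 14 alternatives.

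Of 6 tested neighbours in the Kcnq1ot1 cluster 1 passed. Tssc4 fell from 29.8 ± 1.96 to 27.0 ± 3.13 CPM (SD, n = 3, a change of -0.23 on the log2 scale, adjusted p = 0.0416 in edgeR), and it had an adjusted p of 0.0602 in the fit blocked on replicate number and between 0.066 and 0.199 without vehicle replicate 2 or 3 or 4OHT replicate 1. Tssc4 passed in only 6 of 14 alternatives, and its adjusted p over these edgeR, DESeq2 and limma-voom fits ran from 0.0115 to 0.523. Ascl2, a trophoblast transcription factor gene, was at 2.68, 3.93 and 3.39 CPM and at 2.69, 0 and 3.46 CPM and did not pass (log2 fold change -0.11). In all, 8 of the 10 tested genes of the cluster had values below 0, and the 2 above it were Kcnq1ot1 and Osbpl5 (0.1). Among all tested genes 7324 of 14458 had values below 0. Counted in the same way, 5 of 7 were below 0 in the Dlk1-Meg3 cluster and 3 of 7 in Snrpn-Ndn. It was 1 of 4 in Peg3, 2 of 3 in H19-Igf2, 3 of 3 in Grb10-Ddc and 2 of 2 in Mest. Neighbours were picked after their values were seen, and no shift of a cluster as a whole was tested.

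**Figure D3:**
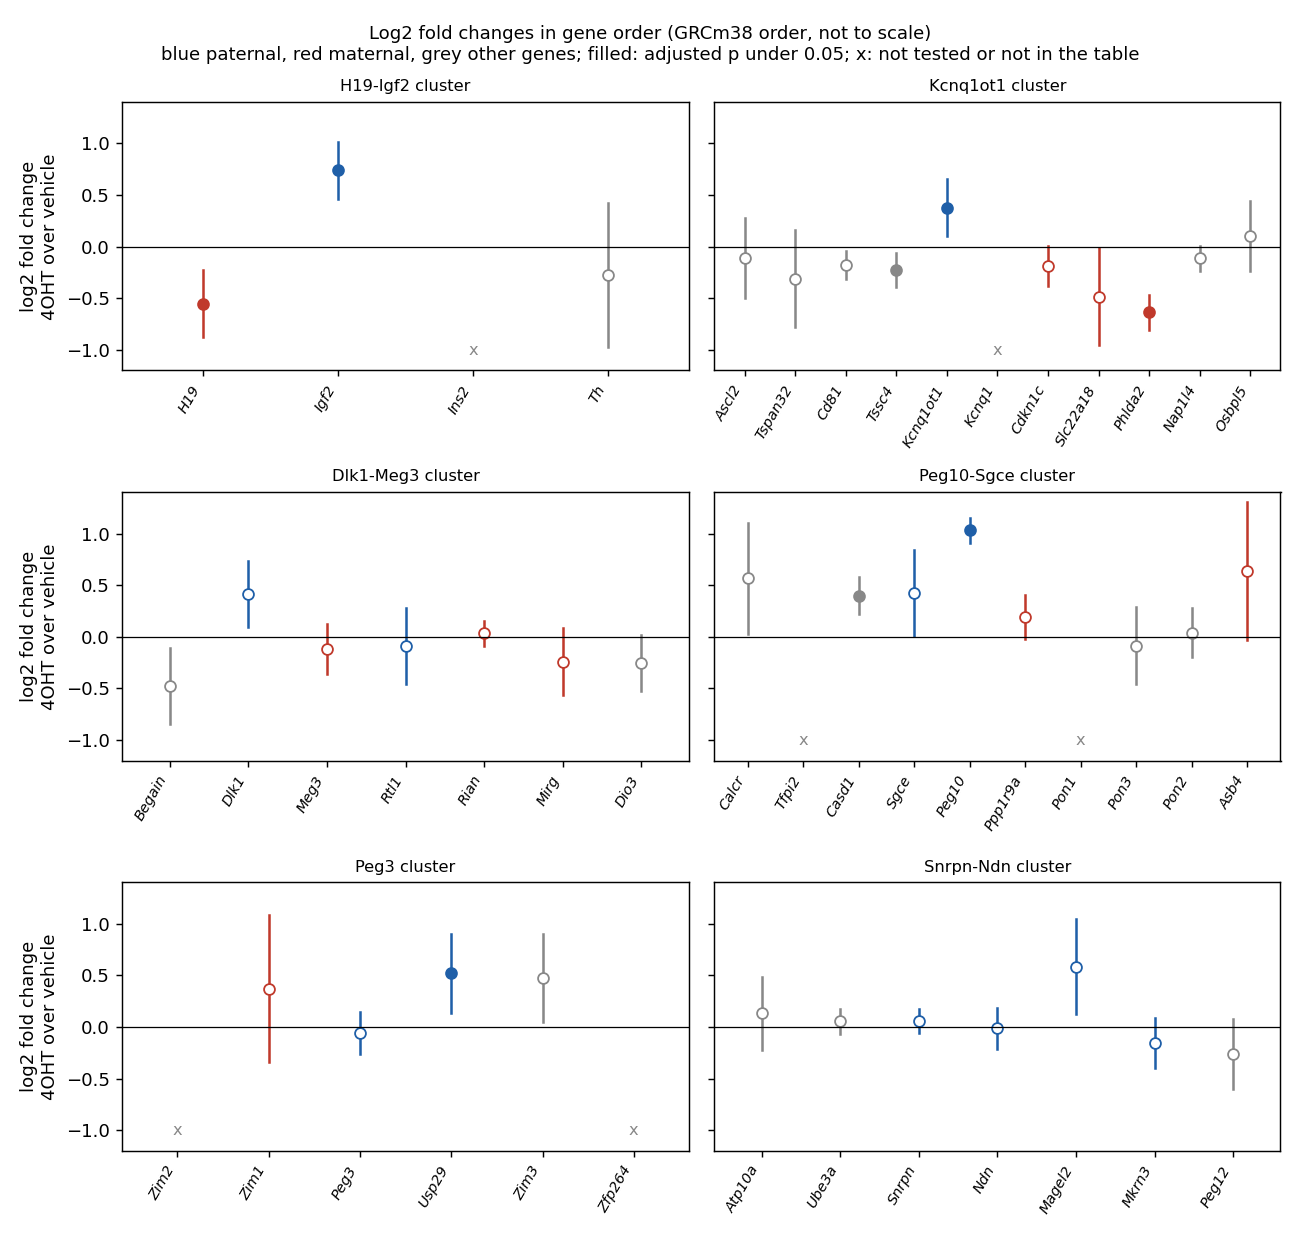
Log2 fold change of 4OHT over vehicle with its 95% interval for the genes of 6 imprinted clusters in chromosomal order (GRCm38 order, not to scale), with members in blue (paternally expressed) or red (maternally expressed) and other genes in grey; filled points passed the test, and an x marks genes not tested or not in the table. In the Kcnq1ot1 panel Kcnq1ot1 and Phlda2 lie on opposite sides of 0, as do Igf2 and H19 in theirs, and in the Dlk1-Meg3 panel no point is filled.

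For every pair of a paternally and a maternally expressed member in 1 cluster with reads in all libraries, the ratio of their counts was taken within each library, which needs no scaling between libraries. In 3 of 12 such pairs the groups did not overlap, each with the higher ratios in 4OHT, and these pairs hold members already described as changed. The 31.3% of all tested genes without overlap refers to levels of single genes. No share was taken for ratios of other gene pairs, so the 3 of 12 have no matching reference. Igf2 over H19 was 0.642, 1.15 and 0.908 in vehicle and 1.71, 6.0 and 2.51 in 4OHT. Kcnq1ot1 over Phlda2 was 0.853, 0.562 and 0.604 in vehicle and 1.76, 1.11 and 1.08 in 4OHT. Peg10 over Ppp1r9a was 7.38, 7.22 and 7.45 in vehicle and 11.6, 12.8 and 15.9 in 4OHT. In a two-sided exact permutation test over the samples each of the 3 had p = 0.1, the smallest that 3 against 3 samples can give (0.343 adjusted over the 12 pairs), so no ratio could pass.

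**Figure D4:**
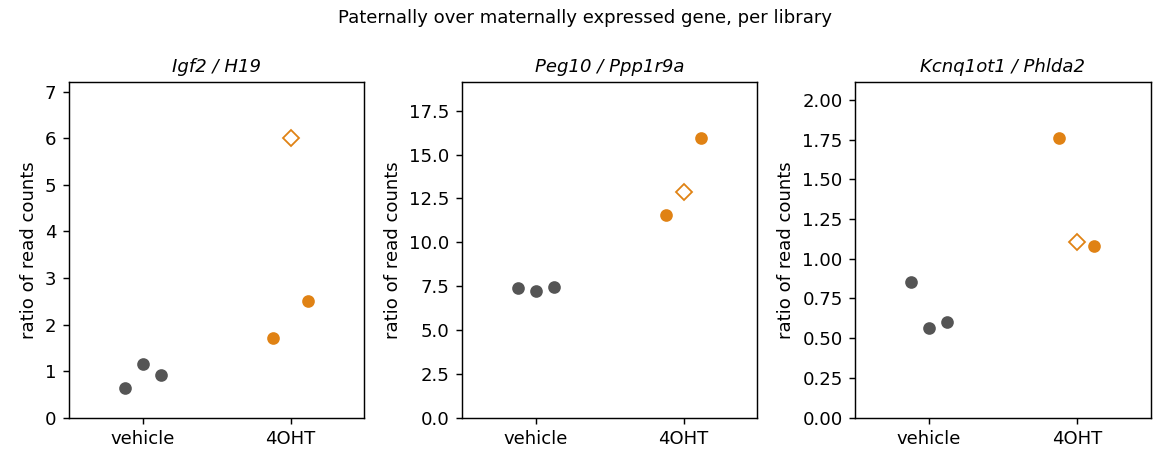
Ratio of read counts of a paternally to a maternally expressed member of the same cluster in each library, for the 3 pairs whose groups did not overlap (grey points: vehicle replicates 1 to 3; orange points: 4OHT replicates 1 and 3; open diamonds: the shallow 4OHT replicate 2). The 4OHT values of Igf2 over H19 lie between 1.71 and 6.0, above the vehicle values of 0.642 to 1.15, and the highest rests on 1 read of H19.

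The Dlk1-Meg3 cluster, whose maternal noncoding RNAs are often silenced in pluripotent stem cell lines, had reads of all 5 members in all 6 libraries. None of them passed edgeR's test, 1 (Dlk1) had an unadjusted p under 0.05, and neither DESeq2 nor limma-voom passed any. Rian, the host of small nucleolar RNAs, was at 109, 114 and 112 CPM in vehicle and at 115, 109 and 114 CPM in 4OHT, with a log2 fold change of 0.03 and a 95% interval of -0.09 to 0.16. Meg3, the first gene of the maternal RNAs, was at 61.0, 52.9 and 47.2 CPM and at 58.3, 57.3 and 39.9 CPM (log2 fold change -0.12, 95% interval -0.36 to 0.12). The groups overlapped, and 4OHT replicate 3 was the lowest of the 6 libraries. Without 4OHT replicate 1 the value for Meg3 was -0.41 with an adjusted p of 4.3e-06, and without 4OHT replicate 3 it was 0.10. Mirg, the microRNA host, was at 5.27, 5.03 and 4.61 CPM and at 5.01, 1.91 and 3.26 CPM (a change of -0.24 on the log2 scale, adjusted p = 0.304 in edgeR, and -0.63 with 0.00561 without 4OHT replicate 1). Without 4OHT replicate 3 the change of Mirg was -0.0194 (adjusted p = 0.945 in edgeR). Dlk1, the paternally expressed membrane protein of the Notch ligand family, was at 2.82, 2.79 and 3.39 CPM and at 3.65, 1.91 and 4.47 CPM. The deep 4OHT libraries lay above vehicle and the shallow one, with 1 read, below it, and the log2 fold change of 0.42 had an edgeR adjusted p of 0.0584. That of Dlk1 was 0.0494 with vehicle replicate 3 left out and 0.0168 with 4OHT replicate 1 left out. It was 0.231 with vehicle replicate 1 left out and 0.246 with 4OHT replicate 3 left out, and Dlk1 passed in 3 of 14 alternatives. Rtl1, a paternally expressed gene of retrotransposon origin, did not pass (2.63, 3.09 and 2.21 CPM against 2.54, 5.73 and 2.25 CPM). The neighbours Begain and Dio3 had log2 fold changes of -0.48 and -0.25 and did not pass.

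The Peg3 cluster gave a weak rise of 1 member. Peg3, a paternally expressed zinc finger gene, was at 27.6, 25.8 and 22.5 CPM in vehicle and at 27.2, 21.0 and 21.3 CPM in 4OHT (log2 fold change -0.06, 95% interval -0.27 to 0.15). Without 4OHT replicate 1 it was -0.26 with an edgeR adjusted p of 0.0289. Usp29, a protease gene that starts from the other side of the stretch printed above, was at 2.1, 1.44 and 2.44 CPM and at 3.03, 5.73 and 2.71 CPM, with all 4OHT libraries above vehicle. The 5.73 CPM of 4OHT replicate 2 rests on 3 reads. Usp29 had a log2 fold change of 0.52 (SE 0.18, adjusted p = 0.0474 in edgeR), and it passed in 3 of 14 alternatives. Its adjusted p was 0.081 in the fit blocked on replicate number and ran from 0.0727 to 0.21 without vehicle replicate 1 or 2 or 4OHT replicate 1 or 2. The opposite-strand gene Zim3 covers 14.3% of the exon bases of Usp29, and Zim3 had a log2 fold change of 0.48, so without a stated use of strand these reads cannot be told apart. Zim1, a maternally expressed zinc finger gene, was at 0.416, 0.349 and 0.228 CPM and at 0.457, 0 and 0.457 CPM and did not pass (log2 fold change 0.37, 95% interval -0.34 to 1.08).

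The Snrpn-Ndn cluster corresponds to the region lost in Prader-Willi syndrome, and all 4 of its members are paternally expressed. None passed edgeR's test, 1 (Magel2) had an unadjusted p under 0.05, DESeq2 passed none and limma-voom passed Magel2. Snrpn, a component of the splicing machinery, was at 214, 224 and 221 CPM and at 226, 223 and 232 CPM (log2 fold change 0.06, 95% interval -0.06 to 0.18). Ndn and Mkrn3 had log2 fold changes of -0.02 and -0.16 at levels between 5.39 and 14.2 CPM. Magel2 was low, at 0.832, 1.05 and 1.03 CPM and at 1.33, 1.91 and 1.5 CPM without overlap, and its log2 fold change of 0.59 had an edgeR adjusted p of 0.0604. The 1.91 CPM of 4OHT replicate 2 was 1 read, so any read there would lie above vehicle.

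Plagl1, a paternally expressed zinc finger factor known to act on other imprinted genes, rose. It was at 5.29, 5.33 and 4.49 CPM in vehicle and at 9.995, 21.0 and 8.85 CPM in 4OHT. Every 4OHT library was above every vehicle library, and the highest value rests on 11 reads of the shallow library. The rise was 1.91-fold (log2 fold change 0.94, SE 0.13, 95% interval 0.66 to 1.21, adjusted p = 2.12e-05 in edgeR), and the log2 fold changes of Plagl1 ran from 0.86 to 1.06 over the 14 alternatives. Grb10, a growth-restraining adaptor of insulin and IGF receptors that is maternally expressed outside the brain, was at 222, 212 and 208 CPM and at 188, 185 and 179 CPM. Its groups did not overlap, and it fell by 0.22 on the log2 scale (SE 0.06, adjusted p = 0.00912 in edgeR). Its neighbour Ddc, the decarboxylase of dopamine and serotonin synthesis, paternally expressed in the heart, was at 32.1, 31.9 and 35.2 CPM and at 28.0, 17.2 and 32.1 CPM. The log2 fold change of Ddc was -0.16 (adjusted p = 0.196 in edgeR), and its adjusted p was 0.0408 in the fit blocked on replicate number and 0.0109 without 4OHT replicate 3.

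Gnas, the gene of the stimulatory G protein alpha subunit, was at 164, 171 and 158 CPM in vehicle and at 181, 185 and 198 CPM in 4OHT. The groups did not overlap and Gnas rose by a small amount (log2 fold change 0.20, SE 0.06, adjusted p = 0.0203 in edgeR). Its adjusted p lay between 0.0552 and 0.121 without vehicle replicate 1, 2 or 3 or 4OHT replicate 3. With all libraries it was 0.117 in DESeq2 and 0.051 in limma-voom, and Gnas passed in 8 of 14 alternatives. The symbol covers several transcripts with different imprinting, which the counts do not separate. Nespas, the paternally expressed antisense RNA of this locus, did not pass (1.7, 1.34 and 1.56 CPM against 1.48, 1.91 and 1.24 CPM), and 31.4% of its exon bases lie opposite Gnas. Impact, a paternally expressed regulator of translation, was at 101, 106 and 105 CPM and at 111, 128 and 119 CPM, without overlap. The log2 fold change of Impact was 0.16 (adjusted p = 0.0718 in edgeR), and its adjusted p was 0.0109 in the fit blocked on replicate number and 0.00877 without 4OHT replicate 1.

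The remaining members are paternally expressed genes that stand alone or in the intron of another gene, and none of them passed. Slc38a4, an amino acid transporter and second of the members in RPKM, was at 273, 292 and 297 CPM and at 272, 283 and 292 CPM (log2 fold change -0.03, 95% interval -0.15 to 0.1). Mest, a hydrolase-like gene of mesoderm, was at 83.7, 87.7 and 91.1 CPM and at 76.2, 101 and 86.7 CPM (-0.08, 95% interval -0.23 to 0.06). Opposite-strand Copg2 covers 23.1% of the exon bases of Mest. Zrsr1, a retrogene of a splicing factor, had a log2 fold change of 0.00 (95% interval -0.22 to 0.22). Mcts2 and Nnat were low, at 2.49 to 2.99 and 1.22 to 1.44 CPM in vehicle, had no read in 4OHT replicate 2 and gave log2 fold changes of -0.10 and -0.28. Nap1l5 had 5 reads over the 6 libraries and was not tested. At the genes that host these transcripts in their introns, Blcap for Nnat, H13 for Mcts2, Commd1 for Zrsr1 and Herc3 for Nap1l5, the log2 fold changes were -0.09, -0.01, -0.13 and 0.25, and none passed.

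**Figure D5:**
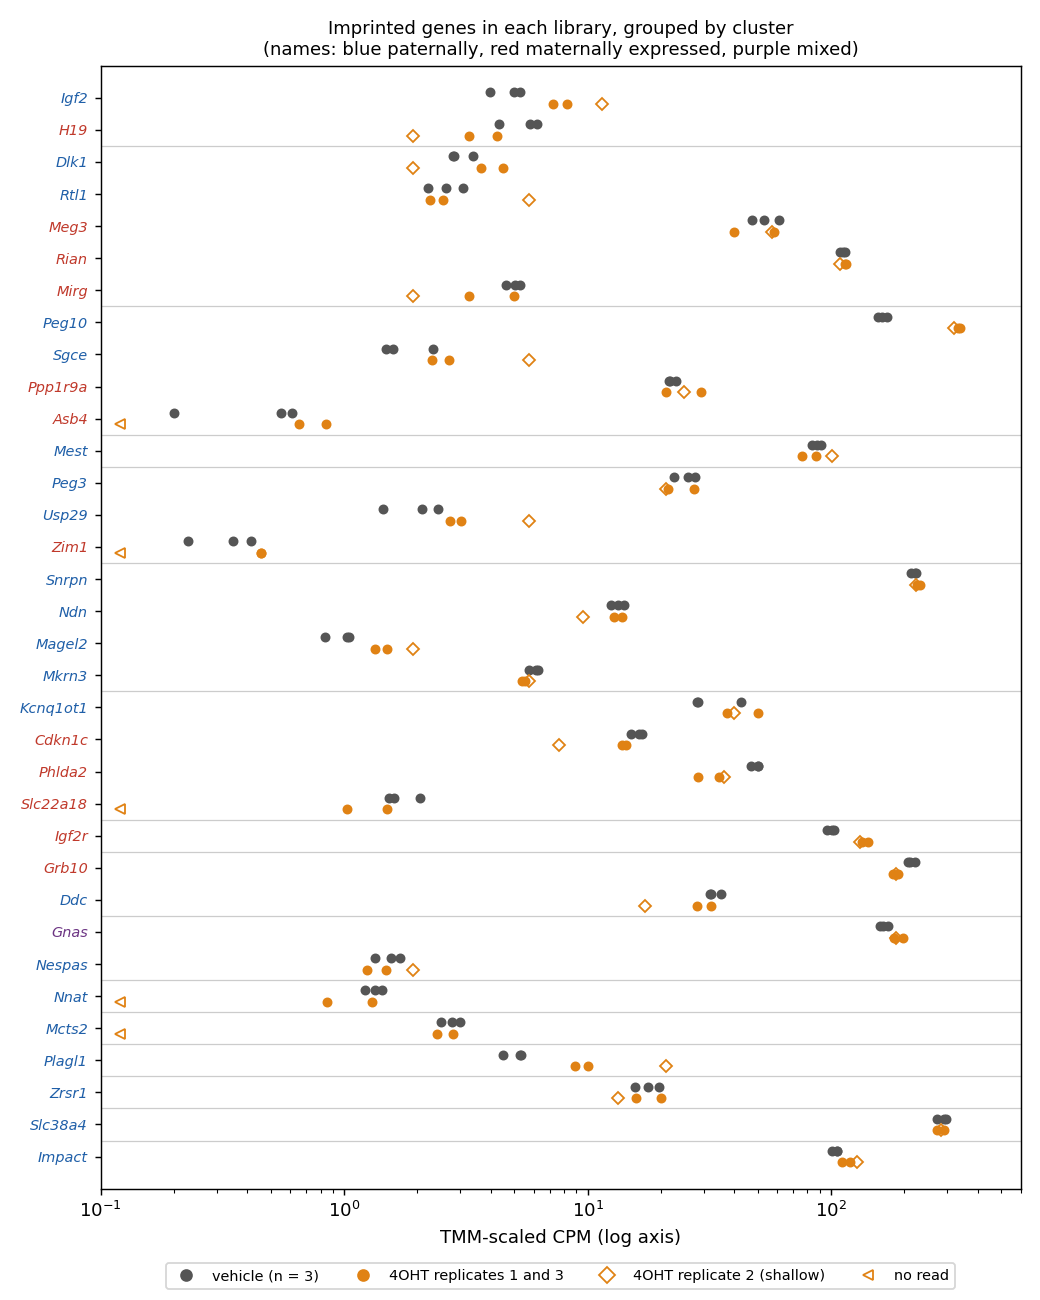
Level of the 34 tested members in each library (TMM-scaled CPM, log axis), grouped by cluster between grey lines: grey points are the 3 vehicle libraries, orange points 4OHT replicates 1 and 3, open diamonds the shallow 4OHT replicate 2, and open triangles at the left edge libraries with no read. Peg10, Igf2, Plagl1 and Igf2r show all 4OHT libraries to the right of vehicle and Phlda2, H19 and Grb10 to the left, while 5 tested members had no read in the shallow library.

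Of 35 genes that write, read or protect imprints 33 were tested, 5 rose and 2 fell (21.2%, beside 22.4% of all tested genes), with a median log2 fold change of 0.02. Dppa3, the maternal factor Stella that shields methylation in the zygote and a neighbour of Nanog, went from 0.302, 0.349 and 0.457 CPM to 3.76, 3.82 and 4.51 CPM (log2 fold change 3.51, SE 0.22, adjusted p = 4.74e-10 in edgeR). Dppa3 is known to have near-identical copies elsewhere in the genome, which were not searched for here, so its counts are uncertain. The methyltransferase genes Dnmt3a and Dnmt3b rose by 0.48 and 0.41 on the log2 scale, to 293 ± 14.9 and 280 ± 13.7 CPM (SD, n = 3). Tet2, which encodes an oxidase that takes part in demethylation, fell from 187 ± 17.2 to 134 ± 23.3 CPM (SD, n = 3, a change of -0.47 on the log2 scale, adjusted p = 0.0015 in edgeR), with an adjusted p of 0.0689 in DESeq2. Tet2 passed in 12 of 14 alternatives. Its log2 fold change over these edgeR, DESeq2 and limma-voom fits ran from -0.71 to -0.27, and its highest adjusted p was 0.118. The rest that passed were picked after their values were seen: Trim28 (log2 fold change 0.25) and the histone methyltransferase gene Setdb1 (0.19) rose and Ehmt2 (-0.21) fell. Setdb1 and Ehmt2 had adjusted p-values of 0.089 and 0.0819 in DESeq2, of 0.15 and 0.0763 in edgeR without vehicle replicate 2, and of 0.0719 and 0.0644 without vehicle replicate 3. Setdb1 was also at 0.0613 without vehicle replicate 1 and Ehmt2 at 0.0819 without 4OHT replicate 1. Zfp57, also picked in this way, was at 293, 270 and 248 CPM in vehicle and at 285, 260 and 223 CPM in 4OHT and did not pass (log2 fold change -0.09, 95% interval -0.26 to 0.09). The maintenance methyltransferase gene Dnmt1 did not pass either (0.06, 95% interval -0.07 to 0.18). Among 46 other genes of imprinted clusters and hosts of imprinted transcripts 30 were tested, 3 rose and 1 fell (13.3%). Besides Casd1 and Tssc4 these were Zdbf2, a paternally expressed zinc finger gene of another cluster, from 182 ± 11.4 to 215 ± 12.6 CPM (SD, n = 3, a change of 0.26 on the log2 scale, adjusted p = 0.00567 in edgeR), and Inpp5f, a phosphatase gene (0.22, adjusted p = 0.0488 in edgeR, which passed in 4 of 14 alternatives). The adjusted p of Zdbf2 was 0.0787 without vehicle replicate 2.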

How the data were processed

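The libraries were made from polyA RNA with the NEBNext Ultra kit, per the labels' protocols. The authors deposited whole-number read counts per gene symbol for the 6 samples. The submitters' processing notes name STAR, DESeq and mm9. Which counter, annotation and strand setting were used is not given in the sources used here. Groups and replicate numbers come from the sample titles.

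The main test, over the whole table, was edgeR's (version 4.0.16, R 4.3.3, filterByExpr with minimum count 10, TMM factors, quasi-likelihood fit with treatment alone, prior count 0.125, Benjamini-Hochberg adjustment over 14458 genes, threshold 0.05, 95% intervals), after a check on simulated counts. Alternatives used DESeq2 1.42.0, limma 3.58.1, other filters and scaling, a replicate block, and 1 library left out. Over 3632 genes with log2 CPM above 6, deviations of same-numbered samples correlated at 0.57, 0.147 and 0.388. Vehicle replicate 2 and 4OHT replicate 3 correlated at 0.448, above 0.147 and 0.388, so pairing by number is not shown. No label says what the numbers mark, and the block was used only as an alternative. No pair of libraries agreed within sampling noise (lowest chi-square per degree of freedom 1.25, between 4OHT replicate 3 and the shallow 4OHT replicate 2). The deep 4OHT replicates 1 and 3 stood at 16.2 against each other, beside 1.8 to 6.85 for pairs of vehicle libraries. Vehicle replicate 2 against 4OHT replicate 3 was at 17. These values were not adjusted for depth. Exon lengths and overlaps are from GENCODE vM21, promoters from RefSeq, both on GRCm38 and not mm9. A search of the members' transcripts with blastn 2.17.0 (95% identity over 50% of a transcript) found a copy only for Igf2, a readthrough gene. Genes of the other lists were not searched.

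Members, gene lists and pairs were chosen with earlier results of these data known. Per-sample values are given for members that passed and for the main clusters, and from each other list up to 4 genes with the smallest adjusted p are named. Other names are said to have been picked later, and the neighbours and host genes beside a cluster were also picked after their values were seen. Floors cover counting error only, and the 95% intervals of fold changes include the spread between samples.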

Additional observations from a re-analysis of the deposited data

How the results depend on the processing

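Over 14 alternatives, 2 of them added after seeing the data (DESeq2 and the replicate block, each without 4OHT replicate 2), 529 of 622 values for single genes kept their direction and side of the threshold, 61 lost the call, 15 gained one and 17 changed sign. The 7 rises among members were 3 in DESeq2, and 4 to 7 when 1 library was left out; the 3 falls were 2 to 6. The count over all genes was 3233, with 977 in DESeq2, 2088 in limma-voom with quantile normalization and 2368 to 3950 with 1 library left out. DESeq2 called 2447 without 4OHT replicate 2, where 8 of the 10 members passed. With a replicate block 4073 genes passed, 9 of the 10 members were among them, Usp29 was lost, and Ddc and Impact were gained; of the other genes that passed and were named from the lists of imprint control and neighbours, Tssc4 was lost and the block changed no other call. Sign changes were seen in members that did not pass. With 1 library left out, log2 fold changes ran from -0.41 (4OHT replicate 1) to 0.10 (4OHT replicate 3) for Meg3, from -0.0783 (4OHT replicate 1) to 0.38 (4OHT replicate 3) for Ppp1r9a, from -0.17 (4OHT replicate 3) to 0.00884 (4OHT replicate 1) for Mest and from -0.26 (4OHT replicate 1) to 0.0825 (4OHT replicate 3) for Peg3. They ran from -0.0684 (4OHT replicate 3) to 0.0366 (4OHT replicate 1) for Ndn, from -0.19 (4OHT replicate 1) to 0.13 (4OHT replicate 3) for Zrsr1 and from -0.0739 (vehicle replicate 1) to 0.0181 (4OHT replicate 1) for Slc38a4. Zrsr1 was at -0.00311 with RLE factors, -0.0206 in DESeq2, -0.0635 with the replicate block and -0.0590 with the block without 4OHT replicate 2. Rtl1 was at 0.00892 with the block and 0.0623 in limma-voom. The cause of these changes was not tested. Depth limits the low members most: 5 tested members had no read in 4OHT replicate 2, where 3 reads make 5.73 CPM.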
